A study of Mus musculus with 2 samples.

Results

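Lmx1b, Lmo1, Otx1, Gata3, Trps1 and Hoxc13 are 6 genes of nuclear regulators that were described here across the epithelium of the developing mouse lower jaw. They were chosen by their counts in this same experiment, as factors high in the aboral epithelium, the surface ectoderm in front of and below the forming teeth. Their differences between groups of epithelial cells, between stages and in detection with Cxcl14 are therefore a description and not a test. All 6 were found by symbol in both gene lists, as 6 of 27998 genes at embryonic day (E) 12.0 and 6 of 31053 genes at E9.5.

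The study profiled single cells of the mandibular arch, the embryonic tissue that forms the lower jaw, with the 10x Genomics 3′ V3 assay, in 1 library per stage. Both libraries came from K14Cre;R26mT/mG embryos, in which Cre recombinase under the keratin 14 promoter switches cells of the epithelium from a red to a green membrane reporter. At E12.0 the epithelium of 6 littermates was pooled, peeled from the mesenchyme after Dispase and sorted for green fluorescence. The E9.5 library held whole arches, pooled from 8 embryos, dissociated with TrypLE and not sorted. Neither library was treated, and there was no second library at either stage, so cells are not replicates and no p-value was computed. Stage, sort, dissociation, gene list and version of the counting software cannot be told apart.

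Transcription factors of the LIM-homeodomain, Otx, GATA and Hox families divide embryonic surface tissue into regions by acting in combination, and regions of the mandibular ectoderm later give rise to teeth, glands, tongue epithelium and skin. Lmx1b is a LIM-homeodomain factor best known for dorsal identity in limb mesenchyme, and Lmo1 is a LIM-only protein that joins transcription complexes without binding DNA itself, so that the word transcription factor holds for it only in this wider sense. Otx1 is a homeodomain factor of the head, and Gata3 a zinc finger activator needed in skin and hair follicle differentiation. Trps1 is an atypical GATA-type zinc finger protein that the study describes as a repressor or activator depending on context. Hoxc13 is the last gene of the HoxC cluster, known for its role in hair and nails.

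In GENCODE vM21 on GRCm38, Lmx1b (ENSMUSG00000038765) spans chr2:33560965-33640511 and Lmo1 (ENSMUSG00000036111) chr7:109138572-109175207, both on the minus strand. Otx1 (ENSMUSG00000005917) lies at chr11:21994764-22002897, Gata3 (ENSMUSG00000015619) at chr2:9857078-9890034 and Trps1 (ENSMUSG00000038679) at chr15:50654752-50890463, again on the minus strand. Hoxc13 (ENSMUSG00000001655) lies at chr15:102921103-102928814 on the plus strand. Gata3 overlaps 3 other annotated genes, of which Gm13256 and 4930412O13Rik lie on the opposite strand and 9230102O04Rik on the same strand. They held 9, 3 and 1 UMIs in the kept E12.0 cells, against 2369 UMIs of Gata3, where a UMI is a molecular barcode that counts 1 captured RNA molecule. Lmo1 overlaps Gm44781 on the opposite strand, which held 3 UMIs at E12.0 against 10609 of Lmo1.

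RefSeq promoter sequence on GRCm38.p6 was at hand for 3 of the 6 members, and the 250 bases before the RefSeq start are shown for these 3. Capitals mark 5 short motifs searched on both strands: GCCNNNGGC, bound by AP-2 factors such as Tfap2b; CTTTGA, bound by TCF/LEF factors; GATAA, bound by GATA factors; TAATCC, bound by Otx factors; and TAATTA, bound by many homeodomain proteins.
Lmx1b, chr2:33641099-33641348, minus strand: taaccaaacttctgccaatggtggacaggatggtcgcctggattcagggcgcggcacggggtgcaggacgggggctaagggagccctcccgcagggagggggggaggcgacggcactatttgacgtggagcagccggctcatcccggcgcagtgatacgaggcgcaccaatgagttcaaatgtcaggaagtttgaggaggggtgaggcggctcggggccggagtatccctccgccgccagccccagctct
Lmo1, chr7:109175208-109175457, minus strand: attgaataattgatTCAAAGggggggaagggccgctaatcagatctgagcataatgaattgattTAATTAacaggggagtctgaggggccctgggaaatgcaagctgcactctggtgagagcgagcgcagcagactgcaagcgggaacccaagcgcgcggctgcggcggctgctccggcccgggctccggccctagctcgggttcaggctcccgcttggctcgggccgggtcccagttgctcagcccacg
Gata3, chr2:9878601-9878850, minus strand: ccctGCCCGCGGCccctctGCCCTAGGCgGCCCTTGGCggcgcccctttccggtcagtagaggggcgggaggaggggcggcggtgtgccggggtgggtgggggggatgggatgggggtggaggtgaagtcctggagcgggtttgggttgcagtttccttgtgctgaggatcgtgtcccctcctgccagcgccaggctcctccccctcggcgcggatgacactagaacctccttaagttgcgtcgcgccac

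The Gata3 window held 3 matches of GCCNNNGGC that did not overlap each other, between positions −246 and −213 counted from the RefSeq start. That start differs from the GENCODE start of Gata3: the window lies inside the GENCODE span of the gene and inside Gm13256 on the opposite strand. At least 1 match was found in 13.7% and 3 or more in 0.289% of the 32851 promoter entries. The window was 70.0% G and C, against a median of 52.4% over all entries. The Lmo1 window held 1 match of CTTTGA, read on the other strand, and 1 of TAATTA, which occurred in 13.8% and 4.84% of entries. GATAA occurred in 22.6% and TAATCC in 6.25% of entries and in none of these 3 windows, and the Lmx1b window held no match of any of the 5. A match is a string of letters and was not tested as a binding site.

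The filter kept cells in which 200 to 5500 genes were found and no more than 10% of UMIs were mitochondrial, which left 11355 of 11663 barcodes at E12.0 and 12744 of 14293 at E9.5. Kept cells had a median of 6349 UMIs in the first library and 13460.5 in the second. E12.0 cells carried the 5 epithelial markers Epcam, Cdh1, Krt14, Krt5 and Trp63 at a summed 1964 CPM (UMIs of a gene per 1000000 UMIs of the cells), against 7.39 CPM for 5 mesenchymal markers, 1.23 CPM for 3 endothelial markers and 0 for 3 erythroid markers. In the unsorted E9.5 library, surface epithelium was taken as 2602 cells with at least 3 UMIs of Epcam and Cdh1, at most 1 of Pdgfra and Prrx1 and none of Foxa2 and Pax1. Those cells still held 141 CPM of erythroid and 55.0 CPM of mesenchymal markers, and the source of that RNA was not tested. Foxa2 and Pax1 were absent by the rule itself. Of other endodermal markers, the gate held 143 of the 340 Shh UMIs and 70 of the 119 Nkx2-1 UMIs of the kept E9.5 cells. Shh was at 4.14 CPM there, against 21.6 CPM in 473 epithelial cells with Foxa2 or Pax1, whereas Nkx2-1 was not lower there. Whether endodermal cells remained in the surface epithelium was not tested. The libraries shared 51 barcodes, 44 of them among kept cells.

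Cells at E12.0 were grouped into gates by UMIs of genes with regional expression. The aboral side is covered by 1202 cells with at least 3 UMIs of the gap junction genes Gjb2 and Gjb6 and by 3388 cells with a UMI of the ligand gene Wnt9b. A gate on at least 2 UMIs of Pthlh and Unc5c held 832 cells, and gates on 1 UMI of the dental factor Irx1 and of the posterior factor Dmrt2 held 1617 and 617 cells. The gates overlap, since 677 cells, or 56.3% of the Gjb2+Gjb6 gate and 20.0% of the Wnt9b gate, lay in both of the first pair, and 5031 cells lay in none. Of the Pthlh+Unc5c gate, 25.4% of cells also lay in the Irx1 gate and 17.7% in the Wnt9b gate. Median depth per gate ran from 6807 to 7421 UMIs, so that depth was similar across them. Levels below are CPM of the summed gate, with exact 95% Poisson intervals in brackets that cover counting error only. Intervals of ratios between gates treat the counts as independent, although cells in both gates add the same UMIs to each side.

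The LIM gene Lmx1b had the steepest profile of the 6 across these gates. It stood at 52.9 CPM (48.3 to 57.8) in Gjb2+Gjb6 cells, at 25.4 CPM (23.5 to 27.5) in Wnt9b cells and at 3.98 CPM (2.62 to 5.79) in Pthlh+Unc5c cells. Irx1 cells held 3.85 CPM (2.87 to 5.07) and Dmrt2 cells 2.97 CPM (1.62 to 4.98). The first 2 steps of this order were larger than counting error, and the 3 lowest gates did not differ beyond it, with a ratio of 1.03 (0.623 to 1.68) between Pthlh+Unc5c and Irx1 cells. Its level in Gjb2+Gjb6 cells was 13.7 times (10.3 to 18.7) that in Irx1 cells. This ratio depended on cells of more than 1 gate: among cells in 1 gate only, Lmx1b was at 57.7 CPM (50.0 to 66.3) in Gjb2+Gjb6 cells and 1.08 CPM (0.519 to 1.99) in Irx1 cells. Pthlh+Unc5c cells in 1 gate only held 3 Lmx1b UMIs, or 0.954 CPM (0.197 to 2.79). With every cell thinned to 4000 UMIs, 17.9% of Gjb2+Gjb6 cells held a Lmx1b UMI, against 8.83% of Wnt9b cells and 0.856% of Dmrt2 cells, and the unthinned shares were 30.9%, 15.8% and 1.94%.

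Lmo1, the LIM-only cofactor, followed the same order at every step. Its level was 308 CPM (297 to 320) in Gjb2+Gjb6 cells, 248 CPM (242 to 254) in Wnt9b cells, 79.2 CPM (72.7 to 86.2) in Pthlh+Unc5c cells, 40.5 CPM (37.2 to 44.1) in Irx1 cells and 27.3 CPM (22.8 to 32.5) in Dmrt2 cells. All 4 steps were larger than counting error, the smallest being the 1.24-fold step (1.19 to 1.3) from Gjb2+Gjb6 to Wnt9b cells. Lmo1 was 7.61 times (6.94 to 8.36) as high in Gjb2+Gjb6 as in Irx1 cells and 11.3 times (9.44 to 13.6) as high as in Dmrt2 cells. Among cells in 1 gate only, Lmo1 was at 305 CPM (287 to 324) in Gjb2+Gjb6 cells, 247 CPM (239 to 254) in Wnt9b cells and 17.1 CPM (14.5 to 20.0) in Irx1 cells. Dmrt2 cells in 1 gate only held 17.0 CPM (12.9 to 21.9), so the step from Irx1 to Dmrt2 cells was not seen among them. A UMI of Lmo1 was present in 66.5% of Gjb2+Gjb6 cells and 8.22% of Dmrt2 cells after thinning.

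Otx1 was the member whose peak lay elsewhere. The highest level was in Wnt9b cells, at 99.1 CPM (95.3 to 103), followed by 62.6 CPM (57.6 to 67.9) in Gjb2+Gjb6 cells and 51.2 CPM (45.9 to 56.9) in Pthlh+Unc5c cells. It fell to 21.0 CPM (18.6 to 23.6) in Irx1 cells and 12.1 CPM (9.15 to 15.7) in Dmrt2 cells. The Wnt9b cells stood 1.58-fold (1.45 to 1.74) above the Gjb2+Gjb6 cells. Among cells in 1 gate only, the contrast with Lmx1b was wider: Otx1 was at 113 CPM (108 to 119) in 2417 Wnt9b cells and 56.6 CPM (49 to 65.1) in 497 Gjb2+Gjb6 cells, while Lmx1b was at 20.2 CPM (18.1 to 22.4) and 57.7 CPM (50.0 to 66.3).

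Gata3 fell from 55.2 CPM (50.5 to 60.2) in Gjb2+Gjb6 cells to 40.2 CPM (37.7 to 42.7) in Wnt9b cells and 25.5 CPM (21.9 to 29.6) in Pthlh+Unc5c cells. It was the only member with its lowest level in Irx1 cells, at 13.8 CPM (11.9 to 16.0), below the 23.7 CPM (19.6 to 28.6) of Dmrt2 cells. The step between those gates was 1.72-fold (1.34 to 2.18), whereas Pthlh+Unc5c and Dmrt2 cells did not differ beyond counting error, at a ratio of 1.07 (0.842 to 1.38). Gata3 was also high in a group chosen by other markers, which overlapped the gates of the rule, since 46 of its cells held an Irx1 UMI. The 414 cells with at least 2 UMIs of Foxc1 and Six2 held 42.7 CPM (36.3 to 49.9) of Gata3. Lmo1 in them was at 26.1 CPM (21.2 to 31.9) and Hoxc13 at 1.63 CPM (0.599 to 3.55).

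Trps1 was the flattest member. The level was 214 CPM (205 to 224) in Gjb2+Gjb6 cells, 173 CPM (168 to 178) in Wnt9b cells, 129 CPM (121 to 138) in Pthlh+Unc5c cells, 110 CPM (105 to 116) in Irx1 cells and 107 CPM (98.1 to 117) in Dmrt2 cells. The highest and lowest gates were just under 2-fold apart, and Irx1 and Dmrt2 cells did not differ beyond counting error, at a ratio of 1.03 (0.929 to 1.14). Thinned Dmrt2 cells held a Trps1 UMI in 32.9% of cases and Gjb2+Gjb6 cells in 56.0%, so the label aboral describes for Trps1 a modest excess over a level present in every gate.

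Hoxc13 was sparse, with 816 UMIs in 730 of the kept E12.0 cells. Gjb2+Gjb6 cells held 18.1 CPM (15.5 to 21.1), Wnt9b cells 16.7 CPM (15.2 to 18.4) and Pthlh+Unc5c cells 12.1 CPM (9.62 to 15), against 4.91 CPM (3.79 to 6.26) in Irx1 cells and 3.18 CPM (1.78 to 5.25) in Dmrt2 cells. The top pair did not differ beyond counting error (ratio 1.08, 0.901 to 1.3), nor did the bottom pair (ratio 1.54, 0.871 to 2.92). In the 234 cells with at least 2 UMIs of Shh and none of Foxa1 and Foxa2, which mark the initiation knot of the tooth, Hoxc13 stood at 17.7 CPM (12.2 to 24.9), while Lmx1b was at 3.22 CPM (1.18 to 7.02), Gata3 at 8.60 CPM (4.92 to 14.0) and Otx1 at 19.3 CPM (13.6 to 26.8).

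**Figure D1:**
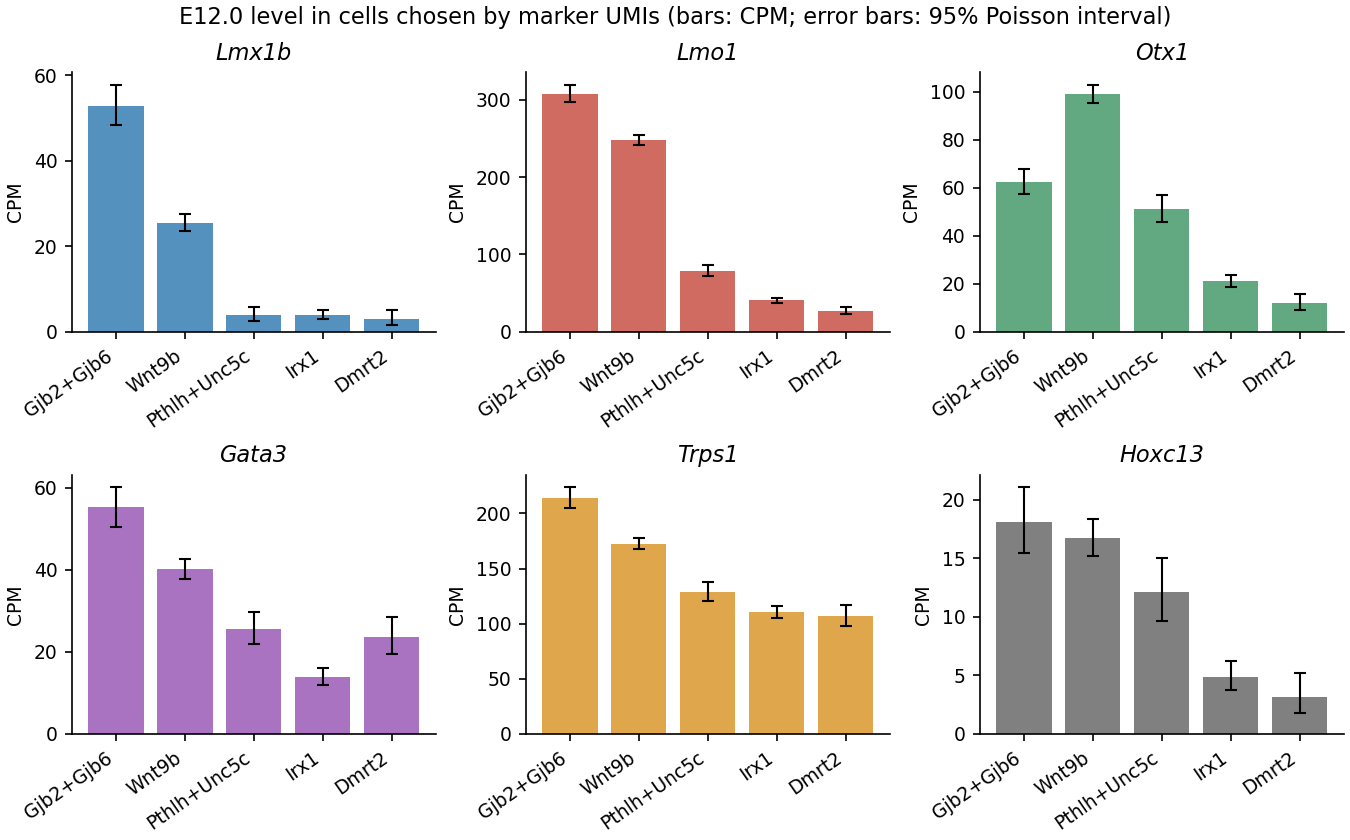
Level of each member (CPM, linear axes that start at 0) in the E12.0 gates on Gjb2+Gjb6, Wnt9b, Pthlh+Unc5c, Irx1 and Dmrt2 UMIs, with bars for the level and error bars for the exact 95% Poisson interval. Lmx1b drops from 52.9 to 2.97 CPM, Otx1 peaks at 99.1 CPM in Wnt9b cells, Gata3 is lowest at 13.8 CPM in Irx1 cells, and Trps1 stays above 100 CPM throughout.

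Counted at a 2-fold ratio, 5 of the 6 members, every one but Trps1, were higher in Gjb2+Gjb6 than in Irx1 cells. Over the 10270 genes with at least 5 CPM in 1 of those gates, 3.55% were that much higher, but the members were selected on this contrast and nothing is read from the comparison. Trps1, at 1.94-fold (1.82 to 2.08), passed as well after thinning, without called doublets, at no more than 5% mitochondrial UMIs, in cells with a Y-linked UMI and no Xist, without cells in both gates and with gates 1 UMI stricter. The same 5 were at least 2-fold higher in Wnt9b than in Irx1 cells, where the share of all genes was 2.41%, and in Gjb2+Gjb6 than in Dmrt2 cells, where it was 3.78%. Between Pthlh+Unc5c and Irx1 cells, where 1.02% of all genes passed, Otx1 at 2.44-fold (2.07 to 2.86) and Hoxc13 at 2.46-fold (1.76 to 3.46) did so. Lmo1, at 1.96-fold (1.73 to 2.21), and Gata3, at 1.85-fold (1.49 to 2.28), lay just short of the limit, and Lmx1b was below 5 CPM in both gates. The count was 4 without called doublets, without cells in both gates or with each cell weighted equally, and 5 with gates 1 UMI stricter. The members' median log2 ratio was 1.94 between Gjb2+Gjb6 and Irx1 cells, beside −0.02 over all genes.

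Gates on other markers gave further values. The 76 cells with at least 2 UMIs of the glutamate receptor gene Gria2 held 94.1 CPM (67.6 to 128) of Gata3 and 266 CPM (220 to 319) of Trps1, the highest values of either gene among the 16 E12.0 groups. In the same cells Lmx1b was at 48.2 CPM (29.8 to 73.7) and Otx1 at 36.7 CPM (21.0 to 59.7). Their median depth was 5224 UMIs, the lowest of the gates. Superficial cells with at least 3 UMIs of Pkp1, Grhl3 and Ppl held 3.37 CPM (1.68 to 6.03) of Lmx1b and 150 CPM (137 to 164) of Trps1. In 1363 cells with a UMI of Fgf8, a growth factor of the oral ectoderm, Gata3 was low, at 9.54 CPM (7.77 to 11.6). Hoxc13 was low there too, at 3.59 CPM (2.54 to 4.93). Of these cells, 33.0% also held an Irx1 UMI.

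Cxcl14, a chemokine gene that the study used as its marker of the aboral zone, was found together with all 6 members more often than the product of their shares. In 10439 cells thinned to 4000 UMIs, Lmx1b and Cxcl14 occurred together in 493 cells, 1.75 times (1.61 to 1.91) the expected share. The corresponding ratio was 1.70 (1.65 to 1.75) for Lmo1, 1.64 (1.47 to 1.82) for Hoxc13, 1.58 (1.51 to 1.65) for Otx1, 1.36 (1.28 to 1.45) for Gata3 and 1.17 (1.14 to 1.21) for Trps1. Cxcl14 was found in 54.4% of thinned cells, which caps these ratios, and 493 of the 517 cells with Lmx1b held it. The members were selected on this co-detection too.

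With the AP-2 factor gene Tfap2b, a second aboral marker, the order was similar, from 1.98 (1.81 to 2.16) for Lmx1b to 1.19 (1.15 to 1.24) for Trps1. With Irx1 the ratios ran from 0.213 (0.106 to 0.381) for Lmx1b to 0.837 (0.753 to 0.927) for Trps1, and all 6 intervals lay below 1. With Dmrt2, Hoxc13 shared 2 cells and Lmx1b 3 cells, and the interval for Gata3 included 1, at 0.732 (0.498 to 1.04).

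**Figure D2:**
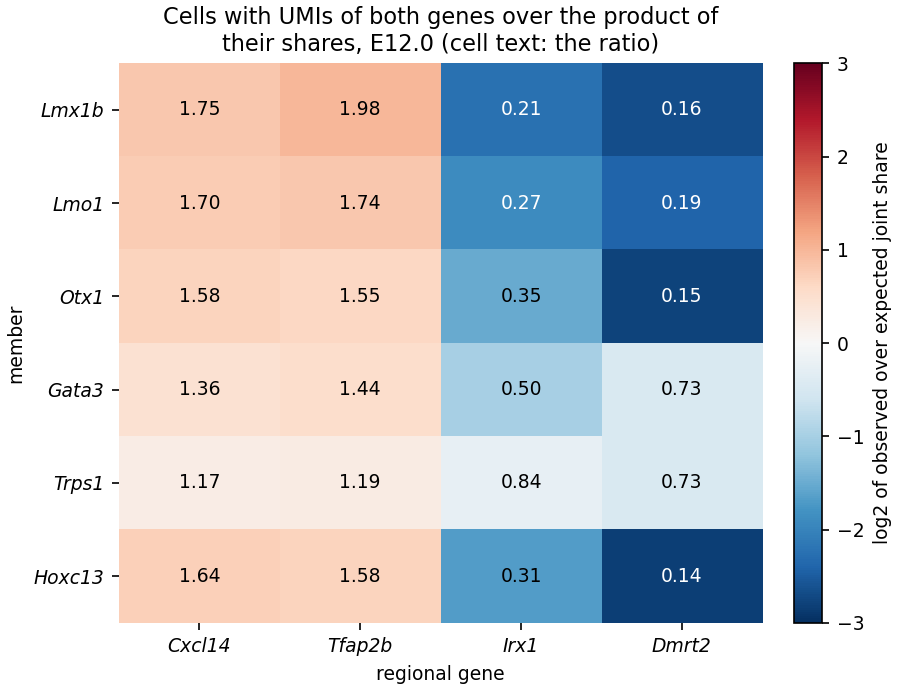
Share of E12.0 cells (thinned to 4000 UMIs) with UMIs of both a member (rows) and a regional gene (columns), divided by the product of the 2 shares, with colour on a log2 scale and the ratio as text. Every ratio with Cxcl14 and Tfap2b lies above 1, from 1.17 to 1.98, and every ratio with Irx1 below it, from 0.213 to 0.837.

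The members rose by different amounts with the number of Cxcl14 UMIs in a thinned cell. Between 4763 cells without Cxcl14 and 2086 cells with 8 or more UMIs of it, Lmx1b went from 1.31 CPM (0.849 to 1.94) to 39.7 CPM (35.5 to 44.2) and Lmo1 from 15.5 CPM (13.8 to 17.4) to 348 CPM (335 to 361). Hoxc13 went from 2.36 CPM (1.72 to 3.16) to 22.1 CPM (19.0 to 25.5), and Trps1 only from 103 CPM (98.3 to 107) to 226 CPM (216 to 236). Otx1 differed in shape, since it levelled off at 118 CPM (110 to 127) in cells with 4 to 7 Cxcl14 UMIs and 107 CPM (99.8 to 114) in cells with 8 or more. Gata3 did not differ between cells with 0 and 1 Cxcl14 UMI, at 17.4 CPM (15.6 to 19.3) and 17.3 CPM (13.3 to 22.0), and reached 60.9 CPM (55.7 to 66.4) at the top.

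**Figure D3:**
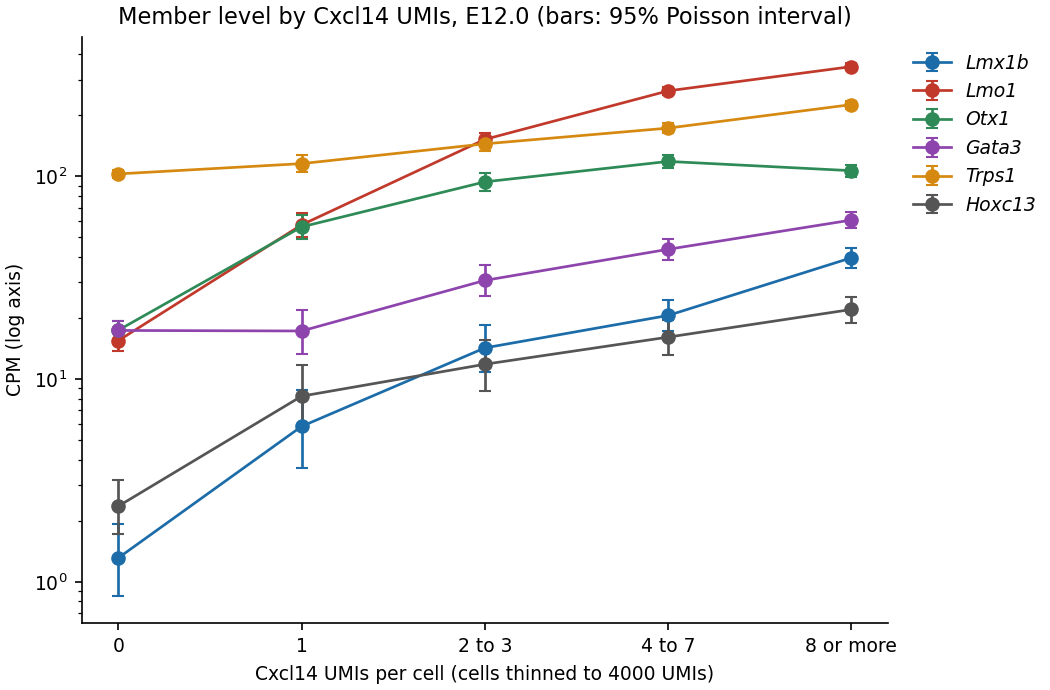
Level of each member (CPM, log axis) in E12.0 cells binned by their Cxcl14 UMIs after thinning to 4000 UMIs, with exact 95% Poisson intervals. Lmo1 and Lmx1b climb through all bins, Otx1 levels off at 118 and 107 CPM in the last 2 bins, and Trps1 starts from 103 CPM in cells without Cxcl14.

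Cells that carried both the aboral marker Cxcl14 and the dental marker Irx1 had levels between those of their neighbours. In 476 such cells Lmo1 was at 96.4 CPM (87.6 to 106), against 232 CPM (227 to 237) in 6124 cells with Cxcl14 alone and 11.6 CPM (9.43 to 14.1) in 1141 cells with Irx1 alone. Hoxc13 was at 10.2 CPM (7.47 to 13.6) in cells with both, 16.6 CPM (15.4 to 17.9) with Cxcl14 alone and 2.18 CPM (1.31 to 3.40) with Irx1 alone. Lmx1b stood at 9.75 CPM (7.09 to 13.1), 24.6 CPM (23.1 to 26.1) and 0.803 CPM (0.323 to 1.65) in the same order. Cells with both genes had a median of 8631.5 UMIs, against 6312.5 and 7113 in the other groups, and the part of 2 cells in 1 droplet or of free RNA in these values was not tested.

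Single cells seldom showed many members at once. After thinning, a cell held UMIs of 1.62 members on average if it held Cxcl14 and of 0.512 members if it did not. At least 3 of the 6 were seen in 1180 of 5676 cells with Cxcl14 (20.8%) and in 33 of 4763 cells without (0.693%). No cell held all 6, and 25 cells held 5. Lmx1b, Gata3 and Hoxc13 were found in only 4.95%, 11.0% and 3.69% of thinned cells, so these counts do not show a lack of shared expression. Within the set, Lmx1b and Lmo1 were found together 2.32 times (2.10 to 2.56) as often as their shares gave, the highest of the 15 pairs, and Gata3 and Trps1 1.11 times (1.02 to 1.21), close to the 1.10 (0.682 to 1.68) of Lmx1b and Hoxc13. The latter pair shared only 21 cells.

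Across the 16 E12.0 groups, which overlap and share 1 library, Pearson's r of log2(CPM + 5) described how alike the profiles were. Lmx1b and Lmo1 had r = 0.895, Trps1 and Hoxc13 r = 0.907, and Otx1 and Gata3 r = 0.303, the lowest of the pairs. Against Cxcl14, r was 0.980 for Lmo1 and 0.662 for Gata3. The groups include the cells with a Cxcl14 UMI and those with a Tfap2b UMI, and the members were selected on co-detection with Cxcl14. These values are therefore a description only. Among 8088 genes with at least 20 CPM in a group, gate genes left out, the profile most like Lmx1b was that of the prolactin receptor gene Prlr (r = 0.987), the one most like Lmo1 that of Cacng4 (r = 0.979) and the one most like Otx1 that of the ligand gene Wnt4 (r = 0.958). For Gata3 the 3 leading genes lay close together: Enah (r = 0.956), Zfpm1 (r = 0.953), which encodes a known GATA cofactor, and E130308A19Rik (r = 0.951). Vwa5a led for Trps1 (r = 0.959) and Nsf for Hoxc13 (r = 0.936).

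Relatives of the members behaved in several ways between Gjb2+Gjb6 and Irx1 cells. Of 10 LIM-domain and LIM cofactor genes, 4 reached 5 CPM in a gate, none was 2-fold higher and 2 were at least 2-fold lower, beside 3.55% and 3.90% of all genes in those directions. Lmo2 was at 1.20 CPM in Gjb2+Gjb6 and 21.5 CPM in Irx1 cells, the opposite direction to Lmo1, and Isl1 at 25.9 and 99.3 CPM. Ldb1, the cofactor that binds LIM domains, was at 128 and 124 CPM, a ratio of 1.04 (0.960 to 1.12), and Lmo4 at 272 and 278 CPM. The median log2 ratio of the 4 was −0.99, beside −0.02 over all genes.

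Of 7 GATA family and cofactor genes, only Zfpm1 reached the limit, at 47.2 CPM in Gjb2+Gjb6 and 15 CPM in Irx1 cells, 3.15-fold (2.66 to 3.75) higher. Gata2 was just below it, at 4.67 and 0.605 CPM, and no UMI of Gata1, Gata4 or Gata5 was found in the kept E12.0 cells, which allows a level of up to 0.0385 CPM for each (3 counts over those cells). Pitx1, a homeodomain relative of Otx1, was lower on the aboral side, at 75.8 against 417 CPM. Hoxc13 was the only one of 39 Hox genes to reach 5 CPM in either gate. Among the other 38, 19 had no UMI in the E12.0 library, and all together they gave 198 UMIs, led by Hoxb2 with 61.

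Of 21 regional factors that the study named, 20 reached 5 CPM in Gjb2+Gjb6 or Irx1 cells. At least 2-fold higher in Gjb2+Gjb6 cells were 4 of them. These were Tfap2b at 1039 against 112 CPM, Tfap2a at 217 against 82.2 CPM, Six2 at 10.5 against 4.08 CPM and Sox21 at 5.65 against 1.36 CPM. Sox21 was higher still in Dmrt2 cells, at 19.9 CPM. At least 2-fold lower in Gjb2+Gjb6 cells were 8, beside 3.90% of all genes and 3.55% in the other direction. Among the 8 were Irx1 itself, which defined the gate, Sox2 at 12.8 against 102 CPM and Nkx2-3 at 18.8 against 124 CPM. The study named these genes from this library, so that their direction is no separate evidence.

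Between the stages, 5 of the 6 members were at least 2-fold higher in E12.0 epithelium than in E9.5 surface epithelium, a ratio that 20.2% of 10471 genes passed in the same direction. Lmx1b stood at 14.3 CPM (13.5 to 15.2) at E12.0 and 1.07 CPM (0.755 to 1.48) at E9.5, Lmo1 at 136 CPM (134 to 139) and 12.0 CPM (10.9 to 13.3), and Otx1 at 59.7 CPM (58.0 to 61.5) and 2.66 CPM (2.15 to 3.27). These were ratios of 13.4 (9.65 to 19.1), 11.3 (10.2 to 12.5) and 22.4 (18.2 to 27.9). Trps1 was at 142 CPM (140 to 145) and 16.1 CPM (14.8 to 17.5). The median log2 ratio over all genes was 0.22, and the sort and the dissociation differed along with the stage. The gene list, the version of the counting software and the depth per cell differed too. None of these can be told apart from the stage.

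Hoxc13 had no UMI in any of the 12744 E9.5 cells, which together held 166191431 UMIs, and a count of 0 allows a level of up to 0.0181 CPM (3 counts over those cells). Against the 10.5 CPM (9.76 to 11.2) of E12.0 epithelium, with 3 counts set in place of 0 over the surface epithelium, it was at least 120-fold higher at E12.0. Of the other 38 Hox genes, 18 were likewise at 0 in the E9.5 cells and Hoxb2 was highest with 431 UMIs, or 2.59 CPM.

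Gata3 was the only member within 2-fold between the stages, at 30.4 CPM (29.2 to 31.6) at E12.0 and 33.5 CPM (31.6 to 35.4) at E9.5, a ratio of 0.909 (0.847 to 0.976). The 473 E9.5 epithelial cells with endodermal Foxa2 or Pax1 held 35.9 CPM (31.5 to 40.8) of it. Its highest E12.0 level among the 5 gates of the rule, in Gjb2+Gjb6 cells, exceeded both. Otx2, the closest relative of Otx1, moved against it between the stages: 4797 UMIs in E9.5 surface epithelium (139 CPM) and 1 UMI in all kept E12.0 cells, where Otx1 gave 4656.

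Within the E9.5 library, Lmx1b, Lmo1, Otx1 and Gata3 were at least 2-fold higher in surface epithelium than in 4237 mesenchymal cells. Only Lmo1 and Gata3 of these 4 reached the 5 CPM needed to enter the background, in which 11.9% of 9818 genes were that much higher. Gata3 was at 33.5 CPM in the epithelium and 3.77 CPM (3.32 to 4.25) in the mesenchyme, 8.88-fold (7.76 to 10.2) higher, and Lmo1 at 12.0 and 2.30 CPM (1.96 to 2.69). Lmx1b and Otx1 rested on 37 and 92 epithelial UMIs against 7 and 15. In 368 endothelial cells Lmx1b was at 0.183 CPM (0.00463 to 1.02), Lmo1 at 1.28 CPM (0.514 to 2.64) and Otx1 at 0.731 CPM (0.199 to 1.87). Gata3 was at 9.5 CPM (7.10 to 12.5) there, above its 3.77 CPM in mesenchyme. Whether endothelial cells express Gata3 was not tested, so this value is not taken as a level of free RNA. After thinning, a Gata3 UMI was found in 12.2% of surface epithelial, 1.70% of mesenchymal and 3.86% of endothelial cells, whose median depths before thinning were 12809.5, 16454 and 14531 UMIs.

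Trps1 was the reverse. At E9.5 it stood at 25.1 CPM (23.9 to 26.3) in mesenchyme and 16.1 CPM in surface epithelium, a ratio of 0.642 (0.582 to 0.706). Among mesenchymal cells, those with a UMI of Hand2, a marker of the ventral arch, held 37.6 CPM (34.4 to 41.1) of Trps1 and the others 22.1 CPM (20.9 to 23.4). Gata3 was split in the same direction, with 9.59 CPM (8.01 to 11.4) and 2.37 CPM (1.98 to 2.81). Lmo1 did not, at 1.78 CPM (1.14 to 2.66) and 2.42 CPM (2.03 to 2.87).

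**Figure D4:**
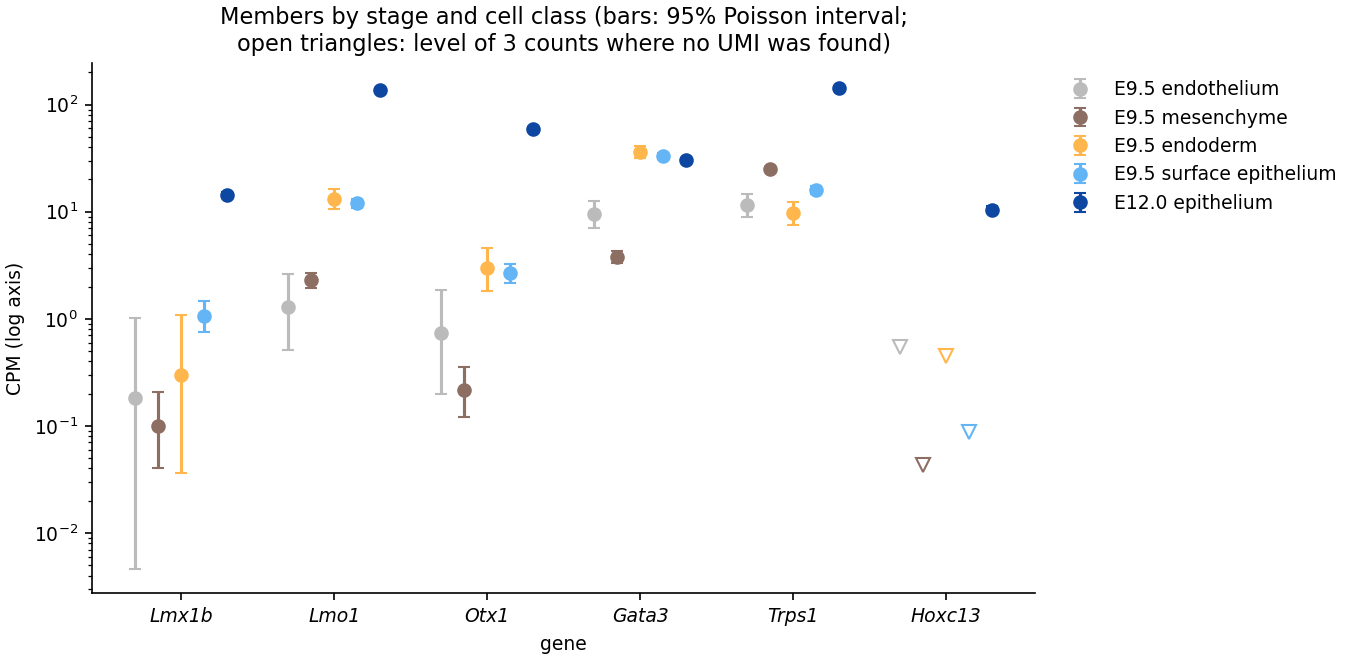
Level of each member (CPM, log axis) in 4 classes of E9.5 cells and in E12.0 epithelium, with exact 95% Poisson intervals and open triangles at the level of 3 counts where no UMI was found. Gata3 is level between E9.5 surface epithelium and E12.0 (33.5 and 30.4 CPM), Trps1 at E9.5 is highest in mesenchyme (25.1 CPM), and Hoxc13 appears only at E12.0 (10.5 CPM).

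Cxcl14 was nearly absent from E9.5 surface epithelium, at 1.65 CPM (1.25 to 2.14), and Tfap2b was taken as the aboral marker there. The members were compared between 237 surface epithelial cells with a Tfap2b UMI and 2365 without. Only Lmx1b was 2-fold higher, at 2.03 CPM (0.817 to 4.19) against 0.965 CPM (0.651 to 1.38), but on 7 and 30 UMIs its ratio of 2.11 (0.781 to 4.89) could not be told from 1. Of 9717 genes that reached 5 CPM, 0.257% passed, and Lmx1b was not among those that reached it. Otx1, Gata3 and Trps1 had ratios of 1.35 (0.672 to 2.50), 0.893 (0.723 to 1.09) and 1.11 (0.838 to 1.45), and Lmo1 was lower with Tfap2b, at 7.55 CPM (4.93 to 11.1) against 12.5 CPM (11.3 to 13.9). After thinning, however, the share of cells with a Lmo1 UMI was alike, at 5.06% (2.64 to 8.68) with Tfap2b and 4.98% (4.13 to 5.94) without. Cells with Tfap2b had a median of 14066 UMIs and those without 12660. Tfap2b itself was at 66.0 CPM in E9.5 mesenchyme and 9.73 CPM in surface epithelium, and the part of mesenchymal RNA in these ratios was not tested.

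The same split of the E12.0 cells, with Tfap2b in 5858 of 11355 cells, gave ratios of 30.7 (21.4 to 45.7) for Lmx1b, 9.59 (8.94 to 10.3) for Lmo1, 3.84 (3.56 to 4.14) for Otx1, 3.24 (2.73 to 3.86) for Hoxc13, 2.50 (2.27 to 2.74) for Gata3 and 1.60 (1.54 to 1.66) for Trps1. Thus 5 of the 6 passed 2-fold, as did 1.83% of 10251 genes. The members were chosen as high in aboral gates of this library. Tfap2b was found in 98.3% of Gjb2+Gjb6 and 87.4% of Wnt9b cells, so nothing is read from this count or from its contrast with E9.5.

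**Figure D5:**
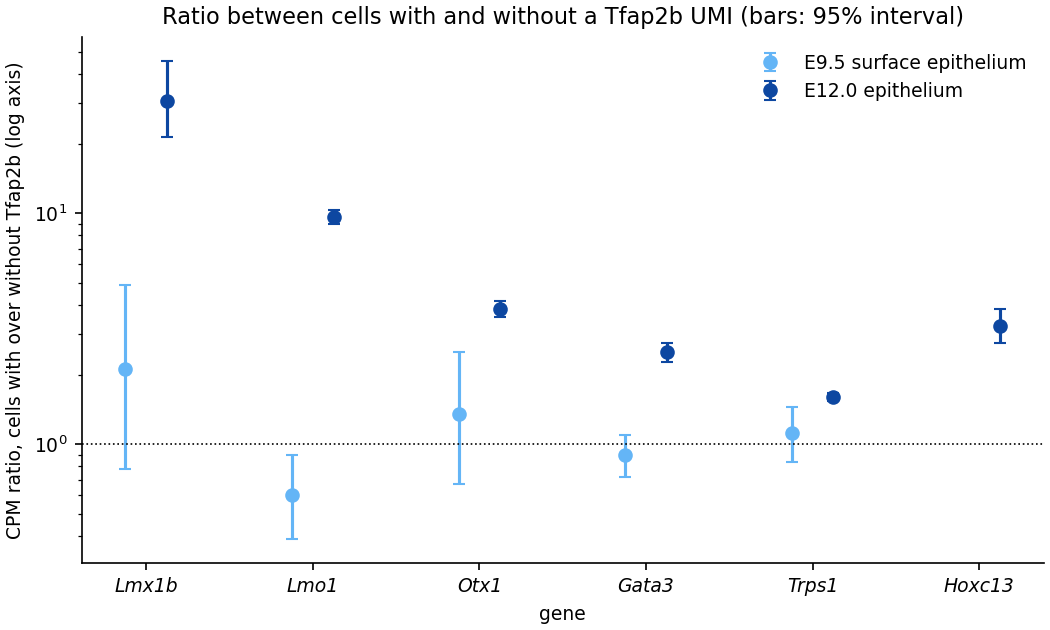
Ratio of each member's CPM between cells with and without a Tfap2b UMI (log axis, dotted line at 1) in E9.5 surface epithelium and in E12.0 epithelium, with exact 95% intervals. At E12.0 all 6 ratios lie above 1, from 1.60 to 30.7, whereas at E9.5 Lmo1 lies below it at 0.602 and 4 intervals include 1 (Hoxc13, without UMIs at E9.5, has no point there).

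Within the E9.5 surface epithelium Lmo1 also differed between other marker groups. It was at 5.50 CPM (4.52 to 6.62) in 1342 cells with a UMI of Vgll2, a gene of the early oral ectoderm, and at 16.1 CPM (13.9 to 18.6) in 800 cells with a UMI of Sfn. Gata3 was at 26.3 CPM (24.1 to 28.6) and 32.1 CPM (28.9 to 35.5) in the same cells, and Otx1 at 2.92 and 2.82 CPM. In 2567 thinned cells, Lmo1 and Vgll2 were found together 0.419 times (0.256 to 0.646) as often as their shares gave, in 20 cells. Gata3 and Trps1 were found together in 23 cells, at a ratio of 1.15 (0.733 to 1.73).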

How the data were processed

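The authors deposited, for each library, a matrix of UMI counts per gene and cell barcode made with Cell Ranger, on mm10 (GRCm38) per the labels. The processing notes name version 2.0.0, whereas the file headers name 3.1.0 at E12.0 and 6.1.2 at E9.5. Cells with fewer than 200 or more than 5500 genes or over 10% mitochondrial UMIs were removed. Scrublet in scanpy 1.11.5 called 661 kept E12.0 cells (5.82%) and 331 kept E9.5 cells (2.60%) as doublets. They were kept, and left out as an alternative.

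UMIs were summed per gate and scaled to CPM, and a ratio of 2 summed counts was given with its exact 95% conditional interval (scipy 1.17.1, numpy 2.4.6, pandas 2.3.3). Shares of cells have exact binomial intervals. Cells were thinned to 4000 UMIs without replacement, which left out 916 E12.0 and 1715 E9.5 cells. PCR and capture are not covered by any interval, nor is variation between embryos, since the embryos were pooled and not tagged. With 1 library per stage no test was possible. The 2-fold rule was checked on simulated data.

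The members, gates and gene lists were chosen with earlier results of these data known. The genes named are the members, the gate genes, Cxcl14, the LIM, GATA, Otx and Hox relatives, the regional factors of the study, and for each member the 3 genes most like it across the 16 groups, of which the text gives the leading ones. Stages were joined by Ensembl ID (27514 shared). CPM ratios were computed only for the same gene, and levels of different genes are set side by side without a ratio. The values of 1 listed gene are not reported here. RefSeq promoter entries for Otx1, Trps1 and Hoxc13 and protein sequences were not used here. Figures were drawn with matplotlib 3.10.9.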

Additional observations from a re-analysis of the deposited data

Results flagged for a closer look

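In CPM, Lmo1 went in opposite directions with Tfap2b at the 2 stages. Its ratio between cells with and without a Tfap2b UMI was 0.602 (0.388 to 0.895) in E9.5 surface epithelium, on 26 and 390 UMIs, and 9.59 (8.94 to 10.3) at E12.0, on 9748 and 861 UMIs. After thinning, the share of E9.5 surface epithelial cells with a Lmo1 UMI was alike. It was 5.06% (2.64 to 8.68) with Tfap2b and 4.98% (4.13 to 5.94) without, so the lower E9.5 level was not seen in this measure. Of the 237 E9.5 cells with Tfap2b, 60 held 2 or more UMIs of it. With 1 library per stage the difference between the stages was not tested. At E9.5 Tfap2b was at 66.0 CPM in mesenchyme and 9.73 CPM in surface epithelium, and Lmo1 at 2.30 CPM in mesenchyme. The part of mesenchymal RNA in the E9.5 ratio was not tested.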

How the results depend on the processing

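Of 442 member values under the alternatives (other depths and thinning, doublets, superficial cells or high-mitochondrial cells left out, no upper gene limit, gates 1 UMI stricter, cells weighted equally, and cells of 1 sex), 310 stayed within their counting interval, 131 moved out of it and 1 reversed. The reversal was Lmx1b between E9.5 cells with and without Tfap2b, whose log2 ratio was −0.37 when epithelium was taken by Epcam alone. The number of members found with Cxcl14 was 6 under each alternative run, and the number 2-fold higher in Gjb2+Gjb6 or Wnt9b than in Irx1 cells lay between 4 and 6. The sizes moved more: the log2 ratio between Gjb2+Gjb6 and Irx1 cells, 3.78 for Lmx1b and 2.93 for Lmo1, was 4.51 and 3.23 without cells in both gates and 5.04 and 3.40 with gates 1 UMI stricter, and between Wnt9b and Irx1 cells that of Hoxc13 went from 1.77 to 2.48 in cells with Xist and no Y-linked UMI. The count between Pthlh+Unc5c and Irx1 cells moved from 2 to 4 without called doublets, without cells in both gates, with each cell weighted equally or at 1.5-fold, to 5 with gates 1 UMI stricter, and to 0 at 3-fold. The count between E9.5 cells with and without Tfap2b moved from 1 to 2 after thinning to 4000 UMIs and in cells with a Y-linked UMI and no Xist, and to 0 in cells with Xist and no Y-linked UMI, by Epcam alone and at 3-fold. The cause of these moves was not tested. Gates that cannot overlap gave no value without shared cells. No paired analysis was possible because there is 1 library per stage. At E9.5 the surface epithelium held 37 UMIs of Lmx1b, 92 of Otx1 and 0 of Hoxc13.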
